A study of Mus musculus with 21 samples.

Results

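Prox1, Neurod1, Eomes, Zbtb20, Mpped1, Wfs1, Calb1 and Man1a are genes used to mark the granule lineage of the dentate gyrus or the pyramidal fields (CA fields) of the hippocampus. They were chosen by name, with earlier results of these data known, and they are 8 of the 31883 genes in the table for newborn mice. The series holds 21 RNA-seq samples of the subcommissural organ (SCO) and the hippocampus of C57BL/6 mice. The comparison used 4 SCO libraries and 5 hippocampus libraries from postnatal day 0 (P0), and the 12 samples from postnatal day 60 were not analysed here. The labels give the mice no mutation and no treatment. They do not say whether the samples of a tissue came from separate animals or from pools, so a p-value here reflects sample-to-sample spread alone, part of which can be technical.

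The SCO is a secretory ependymal gland that sits under the posterior commissure, in the diencephalic roof. The hippocampus comes from the medial pallium of the telencephalon. In the forming dentate gyrus, radial glia give rise to intermediate progenitors that express Neurog2 and then Eomes. These pass through a neuroblast stage with Neurod1, and Prox1 marks and maintains the granule cell fate. Zbtb20 is needed for the identity of hippocampal pyramidal neurons, and Wfs1 and Calb1 become strong in field CA1, Calb1 also in mature granule cells.

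Of the 8 genes, 3 were lower in P0 SCO than in P0 hippocampus by the test across all genes. These were Prox1, Neurod1 and Zbtb20, whose mean levels in hippocampus were 3.86, 6.89 and 7.78 times those in SCO. Mpped1 had the highest ratio of means among the 8, 18.0 times as high in hippocampus, with every SCO library below every hippocampus library, but it did not pass the test and its SCO libraries varied widely. Eomes and Man1a had lower means in SCO with overlapping libraries, Calb1 had nearly equal means, and Wfs1 had the higher mean in SCO. Among the 8 genes 3 were called lower, 0 higher and 5 in neither direction, while the test called 1.34% of the 28150 tested genes lower in SCO and 1.71% higher, 3.05% in all. The median log2 fold change of the 8 genes, SCO minus hippocampus, was −2.49, and that of all tested genes was −0.04. Every SCO value lay below every hippocampus value for 4 of the 8 genes and for 3.75% of all tested genes, and the reverse held for 0 of the 8 and 4.78% of all. Because of how the 8 genes were chosen, these shares describe them and are no test of the set.

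**Figure D1:**
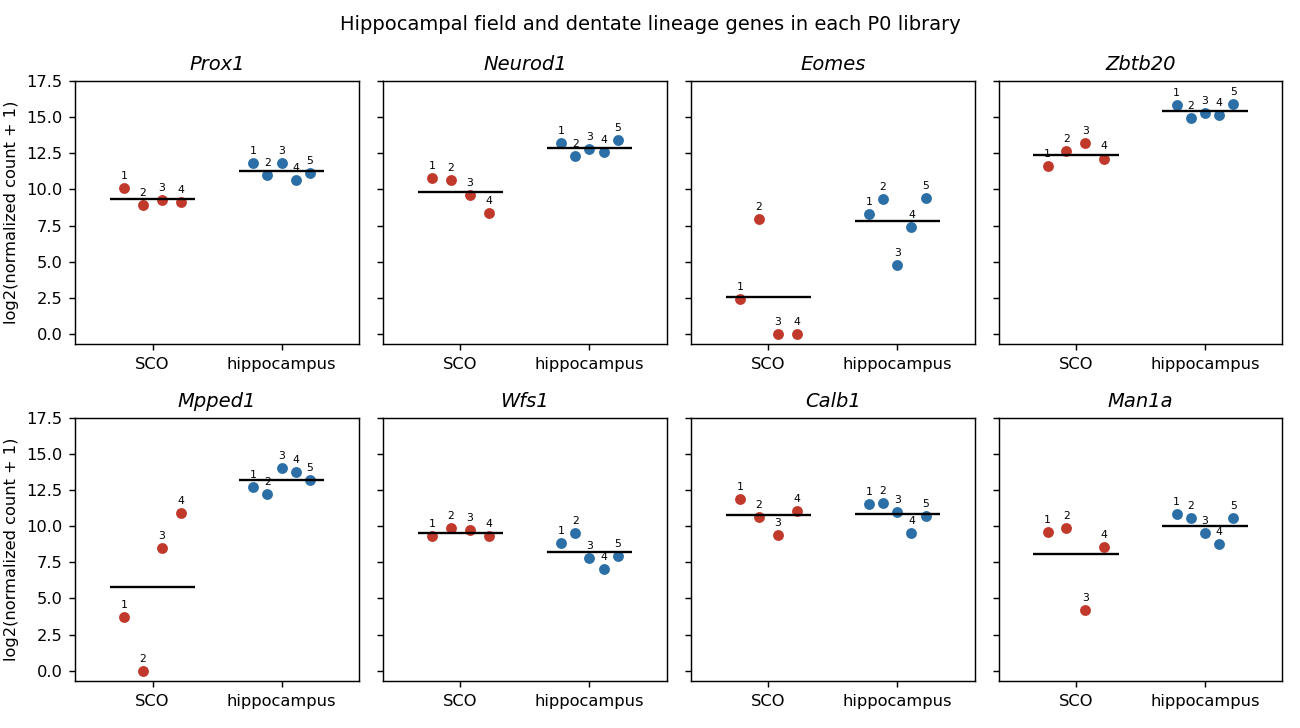
Level of each of the 8 genes in each P0 library, as log2(normalized count + 1) on the vertical axis, with SCO libraries (red) left of hippocampus libraries (blue). Numbers are replicates and bars are group means; the groups do not overlap for Prox1, Neurod1, Zbtb20 and Mpped1, and 1 SCO library stands apart for Eomes and for Man1a, while the SCO libraries of Mpped1 are spread over a wide range.

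Values are normalized counts, that is, reads per gene divided by a size factor of the library. Depth was 35379988 to 64242533 reads in the SCO libraries and 36787949 to 151009954 reads in the hippocampus libraries. Of 5 SCO genes, 4 were called higher in SCO, and the 5 summed to 15607 to 39582 in SCO, against 919 to 2688 in hippocampus. Of 7 pallial genes kept as a check of hippocampal tissue, 5 were called lower, and the 7 summed to 194 to 5977 in SCO, against 79221 to 91178 in hippocampus. A pair of libraries stood apart. SCO replicate 4 held 171311 normalized counts of Ttr, the transthyretin gene of choroid plexus, and 332 of Fezf2, a cortical projection neuron gene, against 108 to 559 of Ttr and 0 of Fezf2 in the other SCO libraries. Hippocampus replicate 2 held 244 normalized counts of Spdef, a transcription factor gene of secretory epithelia that averaged 10253 in SCO, against 0 to 70.8 in the other hippocampus libraries. Calls of the 8 genes that change without these libraries are given with and without them.

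The sequence around an annotated start is printed for each of the 3 genes called lower. That of Wfs1, whose mean was higher in SCO without a call, is printed beside them. Each line gives 250 bases before and 50 bases after the start, 5′ to 3′ on the gene's strand, from RefSeq on GRCm38.p6. The Zbtb20 start lies far inside the locus, which begins at 42875881 and has 21 annotated transcripts. Its window therefore need not resemble those of other Zbtb20 starts. Capitals mark each E-box, CANNTG, the core that proneural factors such as Neurod1 bind.
Prox1, chr1:190170778-190171077, minus strand: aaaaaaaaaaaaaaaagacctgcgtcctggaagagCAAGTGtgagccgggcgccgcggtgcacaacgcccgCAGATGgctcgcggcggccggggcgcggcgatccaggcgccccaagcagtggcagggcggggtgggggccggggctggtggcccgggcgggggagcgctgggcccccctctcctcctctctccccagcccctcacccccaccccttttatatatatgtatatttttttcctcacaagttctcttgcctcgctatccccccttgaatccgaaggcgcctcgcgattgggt
Neurod1, chr2:79456587-79456886, minus strand: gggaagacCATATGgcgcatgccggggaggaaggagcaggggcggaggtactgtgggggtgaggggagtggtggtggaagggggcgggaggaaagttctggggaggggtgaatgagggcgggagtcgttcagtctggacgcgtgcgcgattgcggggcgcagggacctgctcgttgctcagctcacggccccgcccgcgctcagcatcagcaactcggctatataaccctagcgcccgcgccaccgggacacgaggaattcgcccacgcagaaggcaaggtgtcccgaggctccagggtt
Zbtb20, chr16:43247034-43247333, plus strand: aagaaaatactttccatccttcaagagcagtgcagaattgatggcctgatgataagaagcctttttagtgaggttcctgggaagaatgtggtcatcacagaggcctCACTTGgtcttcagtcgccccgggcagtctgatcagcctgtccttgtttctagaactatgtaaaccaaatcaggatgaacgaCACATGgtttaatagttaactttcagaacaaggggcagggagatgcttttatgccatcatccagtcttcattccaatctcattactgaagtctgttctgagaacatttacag
Wfs1, chr5:36988933-36989232, minus strand: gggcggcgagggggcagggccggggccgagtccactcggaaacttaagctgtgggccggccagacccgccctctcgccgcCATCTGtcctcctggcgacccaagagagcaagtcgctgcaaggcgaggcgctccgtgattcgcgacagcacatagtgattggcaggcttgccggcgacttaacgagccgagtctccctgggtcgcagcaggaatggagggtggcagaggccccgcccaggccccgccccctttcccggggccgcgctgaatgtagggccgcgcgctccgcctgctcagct

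The table held 9 promoters for 7 of the 8 genes. The Prox1 window printed above held 2 E-boxes, Neurod1 1, Zbtb20 2 and Wfs1 1, while the second Prox1 window, the Eomes window and the Man1a window held 0. An E-box is palindromic in its fixed letters and was found in 72.3% of 32851 promoters of this length, so its presence is common. The form CAGATG, read on either strand and counted within CANNTG as well, stood in the Prox1 and Wfs1 windows and in 17.2% of all promoters. TCACACC, the core of a T-box site, stood in none of the 9 windows and in 3.98% of all. TATAAA stood in the first Prox1 window, on the opposite strand, and in 13.6% of all. CCAAT stood in windows of Prox1, Eomes, Zbtb20, Wfs1 and Man1a and in 37.4% of all. Base composition ranged widely, at 64.3% G and C for Prox1, 66.7% for Neurod1, 43.3% for Zbtb20 and 70.0% for Wfs1, around a median of 52.7% over all promoters. A match is a string of letters and says nothing of binding in these tissues.

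Among the dentate lineage genes, Prox1 codes for a homeobox transcription factor that granule neurons need to mature and keep their identity (GRCm38 chromosome 1, 190118035 to 190170714, minus strand). SCO replicates 1 to 4 had 1085, 484, 606 and 566 normalized counts, against 3648, 2016, 3658, 1617 and 2296 in hippocampus replicates 1 to 5. All SCO libraries lay below all hippocampus libraries, and SCO replicate 1 was the highest of its group. Prox1 averaged 685 ± 271 in SCO (SD, n = 4) and 2647 ± 949 in hippocampus (SD, n = 5), and it was called lower in SCO with a log2 fold change of −1.94 (SE 0.38, 95% interval −2.78 to −1.10, limma-trend adjusted p = 0.0219). In bulk tissue, fewer cells of a type and less RNA per cell cannot be told apart, for this gene and for those that follow. The call is close to its threshold: without SCO replicate 2, 3 or 4 or hippocampus replicate 1 or 3 the adjusted p was 0.0595, 0.0563, 0.0540, 0.0617 or 0.0654, at log2 fold changes of −1.91 to −1.80. Without SCO replicate 4 and hippocampus replicate 2 together it was 0.0530.

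Reads of Prox1 cannot be fully separated from those of Prox1os, an antisense RNA gene that starts inside the Prox1 locus and runs out of it (190170296 to 190217276, plus strand), and that shares 133 exon bases with Prox1. Prox1os had 734, 192, 466 and 335 normalized counts in SCO, against 773, 855, 723, 396 and 521 in hippocampus. These groups overlapped, and the difference did not pass the test (log2 fold change −0.71, limma-trend adjusted p = 0.549). The reads of Prox1os and of a second, minor antisense gene came to 39.6% to 77.1% of the Prox1 reads in SCO, against 19.8% to 44.9% in hippocampus. Taking all of them off is the largest correction these files allow, since most of the Prox1os span lies outside Prox1. It left Prox1 means of 228 in SCO and 1982 in hippocampus and a log2 fold change of −3.13 (limma-trend adjusted p = 0.00730), a larger difference than before. The reads taken off differed less between the tissues than those of Prox1, so a larger difference had to follow. This fit therefore adds no support to the call.

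Prox1 is also a marker of other cells that such dissections could hold, and each list is given without the 8 genes. Lymphatic endothelium genes had 1 lower and 0 higher among 6 tested, and they summed to 7070 to 15062 in SCO, against 10453 to 20851 in hippocampus; the one called gene was Reln, and Lyve1, a hyaluronan receptor of lymphatic vessels, had 0 to 770 in SCO and 0 to 435 in hippocampus. Genes of interneurons from the caudal ganglionic eminence had 2 lower and 1 higher among 9 tested, with sums of 26041 to 36697 in SCO and 20523 to 34925 in hippocampus. Vip, a peptide that defines a class of these interneurons, was at 0 in all 4 SCO libraries and at 0 to 807 in hippocampus. Oligodendrocyte genes had 0 called in either direction among 11 tested, and summed to 5165 to 12448 in SCO, against 2072 to 6629 in hippocampus. With Prox1 counted, the interneuron list had 3 lower and 1 higher of 10; the lower count was 1 without SCO replicate 2 or 4 or hippocampus replicate 1 or 3, and the higher count was 2 without hippocampus replicate 2, with or without SCO replicate 4. The lymphatic list with Prox1 had 2 lower of 7, and 1 without SCO replicate 2, 3 or 4, hippocampus replicate 1 or 3, or SCO replicate 4 and hippocampus replicate 2 together. The oligodendrocyte list had 1 higher without hippocampus replicate 5. The part of these cells in the Prox1 result was not tested.

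Neurod1 codes for a basic helix-loop-helix factor without which granule cells of the dentate gyrus fail to form in mice (GRCm38 chromosome 2, 79452521 to 79456751, minus strand). In replicate order, Neurod1 had 1749, 1627, 772 and 330.2 normalized counts in SCO, against 9389, 5065, 6987, 6033 and 11094 in hippocampus. The highest SCO library stayed well under the lowest hippocampus library, and SCO replicates 3 and 4 were lower than replicates 1 and 2. Neurod1 averaged 1119 ± 683 in SCO (SD, n = 4) and 7713 ± 2480.1 in hippocampus (SD, n = 5). It was called lower with a log2 fold change of −3.002 (SE 0.49, 95% interval −4.09 to −1.92, limma-trend adjusted p = 0.00897). The call held in each fit with 1 library left out, at an adjusted p of 0.00861 to 0.0286.

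The Neurod1 locus lies inside the span of Cerkl (79330543 to 79456785), a gene on the same strand known for its role in the retina, and the exons of the 2 genes share 201 bases, 7.37% of those of Neurod1. Cerkl was called lower too, with 1135 ± 700.1 normalized counts in SCO and 8152 ± 2378 in hippocampus. In reads, Cerkl held 1.00 to 1.16 times the Neurod1 count in every library, and both had 845 reads in SCO replicate 3 and 295 in SCO replicate 4. The same held wherever one gene lay inside another: in 1069 of 1069 such pairs with at least 100 reads of the inner gene in each library, the outer gene's count was at least that of the inner gene in all 9 libraries. These included 258 pairs on opposite strands in which the inner gene lay in introns only. A deposited value can therefore hold reads from introns and from any gene inside the span, on either strand, and the Cerkl result is no second measurement beside Neurod1.

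The pineal gland lies close to the SCO and uses Neurod1 as well. Without Neurod1, 0 of 8 tested genes of the pineal and photoreceptor list were called lower and 1 was called higher, and the 9 in the table summed to 7910.2 to 14757 in SCO, against 156 to 1029 in hippocampus. The called gene, Otx2, is a homeobox factor of pineal, photoreceptor and roof plate derivatives and held 7705 to 8708 of that sum in SCO. Crx, a homeobox factor that defines pinealocytes and photoreceptors, was at 0 in all 4 SCO libraries. None of the 9 list genes in the table was at 0 throughout hippocampus. Tph1, an enzyme of serotonin synthesis, had 4962, 0, 0.913 and 0 normalized counts in SCO, against 167, 170.0, 21.7, 675 and 0 in hippocampus. The library with high Tph1, SCO replicate 1, was also the highest in Neurod1 and Prox1 among the SCO libraries, and without it both genes were called lower, at a limma-trend adjusted p of 0.00975 for Neurod1 and 0.0181 for Prox1.

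Eomes, also called Tbr2, codes for a T-box factor that defines intermediate progenitors of the pallium and dentate gyrus (GRCm38 chromosome 9, 118478212 to 118486132, plus strand). Its normalized counts were 4.48, 244, 0 and 0 in SCO, against 308, 642, 26.8, 171 and 669 in hippocampus. One SCO library, replicate 2, carried 165 reads where the other 3 carried 3, 0 and 0, and it lay within the hippocampus range. Eomes averaged 62.0 ± 121 in SCO and 363 ± 285 in hippocampus, and the log2 fold change of −5.25 (SE 1.72, 95% interval −9.06 to −1.43) did not pass the test (limma-trend adjusted p = 0.150). Without SCO replicate 2 the log2 fold change was −7.03 and the gene was called lower (adjusted p = 0.0290). An antisense gene, Gm33460, overlaps the Eomes end (118485559 to 118489099, minus strand) with 118 shared exon bases. It had 0, 137, 0 and 1.12 normalized counts in SCO, against 141, 342, 26.8, 51.2 and 345 in hippocampus, so the same SCO library stood out. Reads can be counted for both genes, so Gm33460 is no second measurement beside Eomes. Gm33460 reads came to 29.9% to 100% of the Eomes reads in hippocampus and 56.4% in SCO replicate 2. With all of them taken off, the log2 fold change of Eomes was −3.88 (limma-trend adjusted p = 0.402). That is the largest correction these files allow, since most of the Gm33460 span lies outside Eomes. It left no Eomes reads in hippocampus replicate 3, so this fit cannot show whether the Eomes difference is weaker.

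Zbtb20, a zinc finger factor with a BTB domain, is made in developing CA pyramidal and dentate granule neurons (GRCm38 chromosome 16, 42875881 to 43642602, plus strand). Normalized counts of Zbtb20 were 3084, 6398, 9473 and 4518 in SCO, against 59208, 30995, 39551, 35557 and 62823 in hippocampus. The groups were far apart, and the SCO libraries were 6.76% to 20.8% of the hippocampus mean. Zbtb20 averaged 5868 ± 2760.1 in SCO (SD, n = 4) and 45627 ± 14427 in hippocampus (SD, n = 5). It was called lower with a log2 fold change of −3.02 (SE 0.34, 95% interval −3.77 to −2.27, limma-trend adjusted p = 0.00111), and the call held in all 9 fits with 1 library left out and in the 11 other settings tried. Reads of the 8 tabulated genes that overlap its long locus came to 1.91% to 8.89% of its own reads, and Mir568, a microRNA gene within its exons, was called lower as well, at 17.4 ± 34.1 in SCO and 293 ± 178 in hippocampus (limma-trend adjusted p = 0.0394). All 83 exon bases of Mir568 lie in Zbtb20 exons on the same strand, so it is no second measurement beside Zbtb20.

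Among the other genes of the pyramidal fields, Mpped1 codes for a protein with a metallophosphoesterase domain (GRCm38 chromosome 15, 83779467 to 83858494, plus strand). Mpped1 had 11.9, 0, 357 and 1896 normalized counts in SCO, against 6799.8, 4891, 16301, 13592 and 9490.2 in hippocampus. The groups did not overlap, but the SCO libraries ran from 0 reads in replicate 2 to 1694 reads in replicate 4, the library with high Ttr and Fezf2. Mpped1 averaged 566 ± 902 in SCO and 10215 ± 4716 in hippocampus, and its log2 fold change of −7.42 (SE 1.80, 95% interval −11.39 to −3.44) narrowly missed the threshold (limma-trend adjusted p = 0.0559). Without SCO replicate 4 the log2 fold change was −9.13 and the gene was called lower (adjusted p = 0.0132), and without that library and hippocampus replicate 2 the adjusted p was 0.0278. It was also called lower with a pseudocount of 10 (adjusted p = 0.0327), with genes kept only at a mean of at least 10 (0.0430) and with DESeq2 on the recovered reads (0.0480), but not with edgeR (0.217).

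Wfs1 codes for wolframin, a membrane protein of the endoplasmic reticulum and a marker of CA1 pyramidal neurons (GRCm38 chromosome 5, 36966104 to 36989205, minus strand). The SCO libraries had 631, 921, 863 and 646 normalized counts of Wfs1, against 463, 754, 217, 133 and 242 in the hippocampus libraries. The SCO libraries were tightly grouped and above 4 of the 5 hippocampus libraries, with hippocampus replicate 2 inside the SCO range. Wfs1 averaged 765 ± 149 in SCO (SD, n = 4) and 362 ± 251 in hippocampus (SD, n = 5), 2.12 times as high in SCO. The log2 fold change of 1.33 (SE 0.55, 95% interval 0.10 to 2.55) did not pass the test over all genes (limma-trend adjusted p = 0.277). Without hippocampus replicate 2 it was 1.66, with an adjusted p of 0.104.

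Calb1 codes for calbindin, a cytosolic calcium buffer of CA1 neurons, mature granule cells and many other neurons (GRCm38 chromosome 4, 15881264 to 15908064, plus strand). Its normalized counts were 3766, 1605, 685 and 2130.1 in SCO, against 2959.8, 3074, 2019, 752 and 1658 in hippocampus. The groups overlapped over almost their whole range. Calb1 averaged 2046 ± 1293 in SCO and 2093 ± 962 in hippocampus, and the log2 fold change was −0.12 (SE 0.55, 95% interval −1.34 to 1.11, limma-trend adjusted p = 0.932). That interval still admits a change of more than 2-fold in either direction. The sign turned without SCO replicate 3 (0.32), hippocampus replicate 1 (0.05) or hippocampus replicate 2 (0.06).

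Man1a codes for a mannosidase of the Golgi apparatus that trims N-linked glycans (GRCm38 chromosome 10, 53904785 to 54076609, minus strand). Its normalized counts were 765, 935, 17.3 and 384 in SCO, against 1860.0, 1501, 725, 431 and 1494 in hippocampus. SCO replicate 3, with 19 reads, stood far below the rest, and SCO replicates 1 and 2 lay inside the hippocampus range. Man1a averaged 525 ± 409.6 in SCO and 1202 ± 598 in hippocampus. The log2 fold change of −1.98 (SE 1.07, 95% interval −4.35 to 0.38) did not pass the test (limma-trend adjusted p = 0.417), and without SCO replicate 3 it was −0.70.

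**Figure D2:**
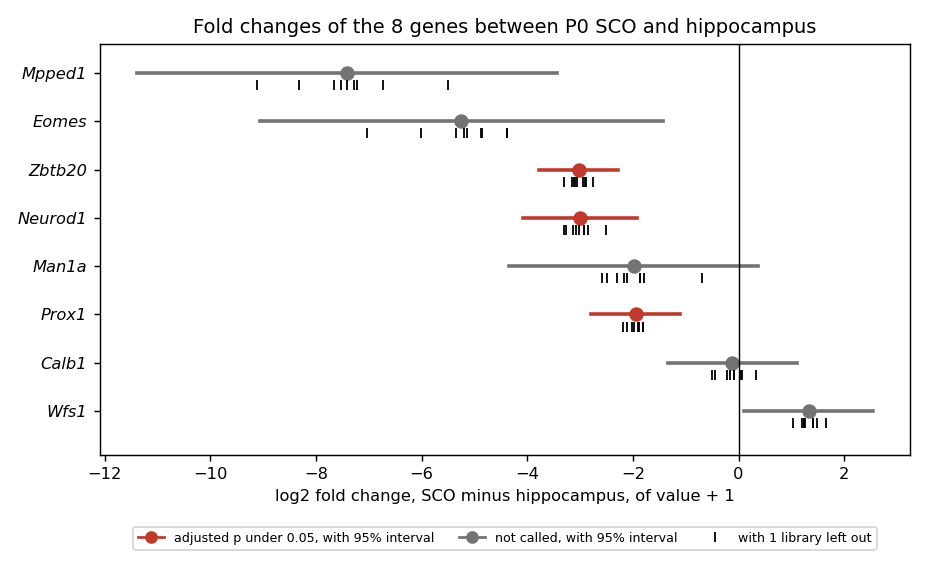
Log2 fold change of each gene, SCO minus hippocampus, with its 95% interval on the horizontal axis and 1 gene per line; ticks give the value with each of the 9 libraries left out in turn. The 3 called genes (red) have short intervals away from 0, Mpped1 and Eomes have the widest intervals, and the ticks of Calb1 fall on both sides of 0.

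In the authors' deposited table the log2 fold changes were −1.95 for Prox1, −2.79 for Neurod1, −2.96 for Zbtb20 and −4.17 for Mpped1, with deposited adjusted p-values of 7.71e-06, 5.2e-07, 7.94e-13 and 0.0138. In the authors' deposited table Eomes (−2.55, adjusted p = 0.399), Man1a (−1.19, 0.432), Calb1 (−0.03, 0.986) and Wfs1 (1.08, 0.192) had adjusted p-values above 0.05. Mpped1 is thus the gene of the 8 on which the authors' deposited table and the limma-trend call differ.

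The order of the SCO libraries differed between the called genes. As a share of the hippocampus mean, Prox1 was 41.0%, 18.3%, 22.9% and 21.4% in SCO replicates 1 to 4, and Neurod1 was 22.7%, 21.1%, 10.003% and 4.28%. Zbtb20 was 6.76%, 14.0%, 20.8% and 9.90%, with replicate 1 the lowest and replicate 3 the highest. The Prox1 shares can include reads of the antisense genes that overlap it. Reads of those genes came to 67.7%, 39.6%, 76.8% and 77.1% of the Prox1 reads in SCO replicates 1 to 4. The order of the libraries for Prox1 could therefore differ without them. The ratio of Zbtb20 to Neurod1 lay between 5.66 and 6.31 in the 5 hippocampus libraries, while in SCO it was 1.76, 3.93, 12.3 and 13.7. The spread of that ratio among SCO libraries was therefore much wider than among hippocampus libraries, though it was not tested. Zbtb20 over Prox1 was less even, at 10.8 to 27.4 in hippocampus and 2.84 to 15.6 in SCO. These ratios were picked after the values were seen.

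Other neuronal genes differed in the share of their hippocampus mean that was left in SCO. Over the 4 SCO libraries the mean share was 25.9% for Prox1 (antisense reads not taken off), 14.5% for Neurod1 and 12.9% for Zbtb20. The share was of like size for Sox11 (15.0%) and for Nfix (12.2%), a nuclear factor I gene of pallial neurons and glia. It was 2.64% for Neurod2, which ranged from 0.117% in replicate 4 to 6.71% in replicate 3, and 1.504% for Neurod6. Neurod6, a bHLH factor gene of pallial glutamatergic neurons, had 1462, 1773, 0.913 and 1321 normalized counts in SCO, against 64361 to 83390 with a median of 79355 in hippocampus, which puts the SCO libraries at 1.93%, 2.34%, 0.00121% and 1.74% of the hippocampus mean. Tbr1, a T-box factor gene of early glutamatergic neurons, had 0 in SCO replicates 1 to 3 and 12.3 in replicate 4, against 542 to 2628 in hippocampus. SCO replicate 3 held 1 read of Neurod6, 0 of Tbr1 and 70 of Neurod2, beside 664 reads of Prox1, 845 of Neurod1 and 10375 of Zbtb20. Prox1os had 510 reads in that library, 76.8% of the Prox1 count, so far fewer than 664 may come from Prox1 itself. What cells held the RNA of these genes was not tested.

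**Figure D3:**
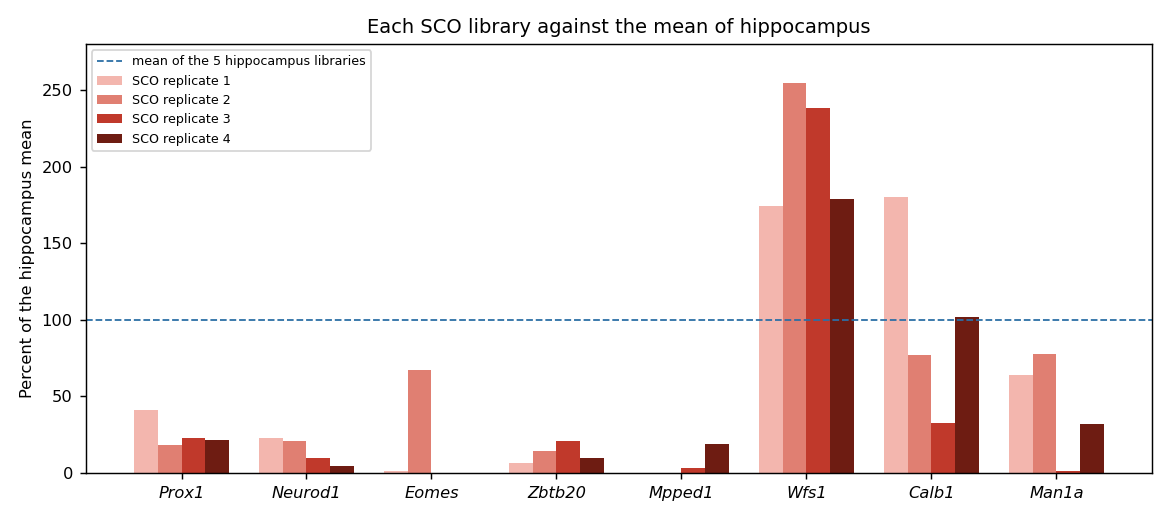
Level of each of the 8 genes in each SCO library as a percentage of the mean of the 5 hippocampus libraries (dashed line at 100), with bars for SCO replicates 1 to 4 from left to right. All bars of Prox1, Neurod1, Zbtb20 and Mpped1 are at most 41.0% of that mean, while all bars of Wfs1 are above it.

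Levels can be compared between genes only per length. Per kilobase of exon in hippocampus, mean normalized counts were highest for Neurod1 (2826 ± 909, SD, n = 5), then Mpped1 (2378 ± 1098) and Zbtb20 (1485 ± 469). Calb1 (432 ± 199), Prox1 (315 ± 113), Man1a (125 ± 61.9), Wfs1 (95.5 ± 66.3) and Eomes (87.5 ± 68.5) followed. Between neighbours in that order, library ranges were apart only between Zbtb20 and Calb1. In SCO the order per kilobase of exon was Calb1 (422 ± 267, SD, n = 4), Neurod1 (410.2 ± 250.1), Wfs1 (202 ± 39.2), Zbtb20 (191 ± 89.8), Mpped1 (132 ± 210.0), Prox1 (81.7 ± 32.3), Man1a (54.5 ± 42.5) and Eomes (14.9 ± 29.1). All neighbours in the SCO order had overlapping ranges. Since introns can be counted, the order also depends on the length used. Per kilobase of the whole locus, Zbtb20, which spans 767 kb, came after Calb1 in hippocampus, at 59.5 against 78.1. By that length Neurod1 was first in both tissues, at 265 in SCO and 1823 in hippocampus. By exon length Calb1 was first in SCO.

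Further genes of the dentate granule lineage were lower or higher. Of 21 such genes tested beside Prox1, Neurod1, Eomes and Calb1, 7 were called lower and 2 higher. With those 4 the list had 9 lower and 2 higher of 25, and its median log2 fold change was −1.94, also with the 2 genes at 0 in a whole tissue set to their bound. Neurod2, a bHLH factor gene related to Neurod1, averaged 25.2 ± 28.7 in SCO, against 953 ± 391 in hippocampus, and was called lower (log2 fold change −6.10, limma-trend adjusted p = 0.00880). The immature neuron genes Sox11 and Dcx, for a transcription factor and for doublecortin, fell by less. Sox11 averaged 4831 ± 1324 in SCO, against 32192 ± 6725 in hippocampus (log2 fold change −2.75), and Dcx averaged 8565 ± 3296 in SCO and 31488 ± 10085 in hippocampus (−1.89). Igfbpl1, a gene of newborn neurons, averaged 67.8 ± 89.0 in SCO and 1241 ± 576 in hippocampus (−5.94). Calb2 and Ncald, for the calcium-binding proteins calretinin and neurocalcin delta, rose. Calb2 averaged 18785 ± 5189 in SCO and 6610 ± 1023 in hippocampus (1.48), and Ncald averaged 25498 ± 4028 in SCO and 8303 ± 3397 in hippocampus (1.73). The count of lower genes in the list was 5 of 25 without hippocampus replicate 1 or 3, and 5 without SCO replicate 4 and hippocampus replicate 2. The count of higher genes was 1 of 25 without SCO replicate 2, 3 or 4 or hippocampus replicate 5.

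Some intermediate progenitor genes were lower as well. Of 11 tested beside Eomes and Neurod1, 3 were called lower and 0 higher, and with those 2 the list had 4 lower of 13, with 1 higher when hippocampus replicate 1 was left out. Sstr2, a somatostatin receptor gene of these progenitors, averaged 527 ± 380.0 in SCO, against 5868 ± 2126 in hippocampus, and was called lower (log2 fold change −3.73, limma-trend adjusted p = 0.00559). The other 2 are expressed too weakly for the rule of named genes and were named after their values were seen. Insm1, a zinc finger factor gene of dividing neural progenitors, had 0 reads in all 4 SCO libraries and averaged 262 ± 65.0 normalized counts in hippocampus, at least 69.8-fold lower in SCO against a floor of 3 reads per library. Neurog2, the proneural factor gene upstream of Eomes, had 7.46, 0, 0 and 0 normalized counts in SCO, against 25.1 to 428 with a median of 144 in hippocampus.

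The CA field list held few calls. Of 18 tested beside Wfs1, Mpped1, Man1a and Zbtb20, 3 were called lower and 0 higher, with a median log2 fold change of −0.03 close to that of all genes. Those lower included Nectin3 and Pou3f1. Nectin3, for a cell adhesion protein enriched in CA3, averaged 523 ± 339 in SCO, against 3017 ± 534 in hippocampus, and was called lower (log2 fold change −2.96, limma-trend adjusted p = 0.0342). Pou3f1, for a POU-domain factor of CA1, was named after its values were seen and averaged 4.28 ± 3.36 in SCO and 406 ± 197 in hippocampus (−6.54). Grik4, for a kainate receptor subunit enriched in CA3, had 1533 ± 1767 in SCO and 2031 ± 1654 in hippocampus and was not called. The lower count of the whole list was 4 of 22, and 2 of 22 without SCO replicate 3 or hippocampus replicate 3 or 4, while 1 gene was called higher without SCO replicate 2.

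**Figure D4:**
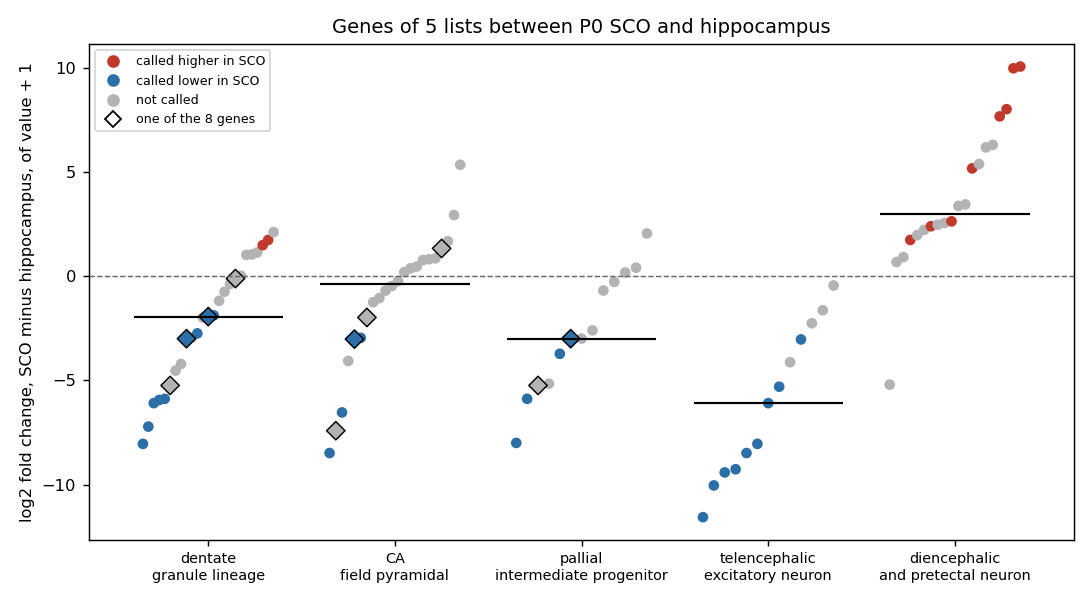
Log2 fold changes, SCO minus hippocampus, of the tested genes of 5 lists (1 column per list, genes sorted, line at the median), with the 8 genes drawn as diamonds. Called genes lie mostly below 0 in the first 4 lists and are all above 0 among diencephalic and pretectal neuron genes, while most CA field genes are grey and close to 0.

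The wider setting of the tissues moved with these results, and its part in them was not tested. Telencephalic excitatory neuron genes had 9 lower and 0 higher of 13 (median log2 fold change −6.10), and they summed to 12625 to 22929 in SCO, against 137516 to 177744 in hippocampus. Medial pallium genes had 4 lower and 0 higher of 16 (median −2.30, or −1.88 with the 4 genes at 0 in SCO set to their bound). Among them Lhx2, a LIM homeobox gene that gives the pallium its fate next to the hem, averaged 121 ± 109 in SCO and 1837 ± 726 in hippocampus (−4.46), and Emx2, a homeobox gene the dentate gyrus needs to form, named after its values were seen, averaged 5.32 ± 10.6 in SCO and 378 ± 207 in hippocampus (−7.22). Genes of diencephalic and pretectal neurons had 0 lower and 8 higher of 20, and summed to 61474 to 92726 in SCO, against 6958 to 9150.4 in hippocampus. Tcf7l2, a Wnt pathway factor gene of thalamus and habenula, averaged 37249 ± 12709 in SCO and 268 ± 237 in hippocampus (7.66), and Slc17a6, the vesicular glutamate transporter gene of subcortical neurons, averaged 12874 ± 1777 in SCO and 2201 ± 743 in hippocampus (2.63). Calb1 and Calb2 are also made by neurons of these regions. Cajal-Retzius genes had 2 lower and 1 higher of 9, choroid plexus genes 0 lower and 2 higher of 11, and radial glia and astrocyte genes 2 lower and 1 higher of 12. The lower count of the Cajal-Retzius list was 1 without SCO replicate 2 or 3 or any 1 hippocampus library. That of the radial glia list was 1 without any 1 SCO library or hippocampus replicate 1, 3 or 5, and its higher count was 3 without hippocampus replicate 2 and 2 without that library and SCO replicate 4. Reln, the gene of reelin made by Cajal-Retzius cells, averaged 1652 ± 626 in SCO and 8142 ± 2874 in hippocampus (−2.30, limma-trend adjusted p = 0.00443). The Cajal-Retzius list as a whole had a median log2 fold change of 0.18, and Calb2 was its gene called higher. Its sums were 17982 to 28163 in SCO, against 13916 to 24229 in hippocampus.

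The genes whose profiles over the 9 libraries were most like those of the 8 were found by the root mean square difference of log2(value + 1), each profile centred at its own mean, among 14271 genes. This describes the profiles only, since all genes share the libraries and the tissue difference. For Prox1 they were Gabra2 (0.305), for a GABA-A receptor subunit, and Foxj3 (0.341), for a forkhead factor. For Zbtb20 they were Tcf4 (0.339), for a bHLH partner of proneural factors, and Rnf182 (0.343), and Tcf4 averaged 8966 ± 1738 in SCO and 85904 ± 18235 in hippocampus. For Neurod1 they were Cerkl (0.0670), which shares its reads, and then Ppm1l (0.452). For Wfs1 they were Capsl (0.344) and Rag2 (0.392), for Calb1 Cryl1 (0.277) and Yeats4 (0.376), and for Man1a Kti12 (0.466) and Syce1l (0.499). Eomes and Mpped1 had no close match: the nearest genes were BB557941 (1.35) and Spred3 (1.40) for Eomes, and Gpr22 (1.53) and Ccdc71l (1.59) for Mpped1. Among the 8 genes the nearest pairs were Neurod1 with Zbtb20 (0.815), Prox1 with Neurod1 (0.871) and Prox1 with Zbtb20 (0.901), which are the 3 called genes. Calls and distances come from the same values, so this nearness adds no support to the calls.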

How the data were processed

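RNA of P0 SCO (4 libraries) and P0 hippocampus (5) was measured by RNA-seq. Per the submitters' processing notes, the tools named were FastQC, HISAT, HISAT2, featureCounts and DESeq2, with build GRCm38 and with versions, annotation and strand setting not given in the sources used here. What the authors deposited is 1 normalized signal per gene and library, read counts scaled by 1 size factor for each library. Dividing by the worth of 1 read gave whole reads for 100% of values (tolerance 1e-06), and 0 columns belonged to another series. The deposited comparison columns hold a mean signal, log2 fold changes with their errors, a statistic given as a score, and p-values, as DESeq2 names them per the file headers.

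The main test was limma-trend (limma 3.58.1, R 4.3.3) on log2(value + 1), run on the 28150 genes whose mean reached 1 in SCO or in hippocampus. Calls used an adjusted p (Benjamini-Hochberg, over all tested genes) under 0.05. The pseudocount shrinks differences between low values. The mean of logs gives weight to libraries near 0, so for Mpped1, Eomes and Man1a the log2 fold change is larger in size than the log2 of the ratio of means (hippocampus over SCO 18.0, 5.86 and 2.29). The design allowed edgeR for whole counts, and its rule for normalized values was used. Alternatives were edgeR 4.0.16 (503 genes called) and DESeq2 1.42.0 (2706) on the recovered reads, other pseudocounts, filters and scalings, and fits without each library. The fit with the reads of overlapping genes taken off was added after seeing the data. TMM scaling moved the median log2 fold change of all genes by −0.06. In a test on data of known answers drawn for this comparison (26943 genes), 26% of 4-fold and 62% of 16-fold changes were recovered, with 4 false calls. A gene at 0 is bounded by 3 reads per library. Such bounds hold for counting error alone, because without molecular identifiers several reads can stem from 1 molecule.

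The 8 genes and the 15 lists (171 genes, 167 in the table) were chosen with earlier results of these data known. Named genes are the 8 genes, up to 6 further genes per list that are called or largest in change with at least 10 CPM, defining markers of other cell types, and the 2 most similar genes by profile. The text names fewer, and some are not reported here. Positions are from GENCODE M21, matched by versioned identifier (31302 of 31883), promoters from RefSeq. Python 3.11.15, pandas 2.3.3 and matplotlib 3.10.9 were used.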

Additional observations from a re-analysis of the deposited data

Results flagged for a closer look

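Values far from the rest of their group were found in 16 of 104 groups examined. The rule used gives about 1 in 20 by chance only for normally distributed values in independent groups. Counts are skewed, and any gene with reads in a single library of a group passes the rule. Some genes were named after their values were seen, and some groups share genes or reads. The 16 groups are therefore not set against a chance rate. Explanations were not tested.

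Among the 8 genes and their overlapping partners, Eomes at 244 normalized counts in SCO replicate 2, its antisense partner Gm33460 at 137 in the same library, and Mir568, inside Zbtb20, at 68.5 in SCO replicate 3 lay far above the other SCO libraries.

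SCO replicate 4 lay far above the other SCO libraries for Fezf2 (332), Ndnf (341), Emx2 (21.3), Tbr1 (12.3), Ttr (171311) and the summed choroid plexus genes (199598). It was also the SCO library with the highest Mpped1 and the lowest Neurod1. SCO replicate 1 stood out for Tph1 (4962) and Neurog2 (7.46).

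Hippocampus replicate 2 stood out with high Spdef (244) and Pou3f1 (753) and with a low sum of telencephalic excitatory neuron genes (137516). Hippocampus replicate 4 had a high Tph1 (675), and hippocampus replicate 1 had a high sum of diencephalic and pretectal neuron genes (9150.4).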

How the results depend on the processing

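The fits gave 378 genes lower and 481 higher in SCO by limma-trend, 1213 and 1493 by DESeq2, and 203 and 300 by edgeR. With 1 library or the pair of doubted libraries left out they gave 189 to 457 lower and 285 to 647 higher. Of the 8 genes, 3 were called lower, with 2 to 3 when 1 library was left out and 4 with DESeq2, a pseudocount of 10 or a minimum mean of 10; 0 were called higher in any setting. Zbtb20 was called lower in all 20 alternatives and Neurod1 in 19. The log2 fold change of Calb1 lay between −0.49 and 0.32 with 1 library left out, and its sign turned in 3 of those 9 fits. The causes were not tested.

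The replicate block, run on the 8 libraries numbered 1 to 4, left 55 genes lower and 125 higher and 1 of the 8 genes called, Zbtb20 (limma adjusted p = 0.0381), with Neurod1 at 0.0598 and Prox1 at 0.0927. Deviations of libraries with the same number correlated at −0.03 to 0.02, and 0 of the 4 numbers had its own partner as the best match. These numbers follow the order of the samples within each tissue. The column names carry other numbers, which were not used for pairing. Whether SCO and hippocampus libraries came from the same animals was not tested.

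With 4 and 5 libraries, genes that vary within SCO, such as Mpped1, Eomes and Man1a, can differ widely without passing the test. Reads of overlapping genes came to the largest share for Prox1 and Eomes, while Neurod1 lies inside Cerkl and had none taken off.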

Other observations

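Ratios of 2 genes within a library do not depend on the size factor of the library. Mpped1 over Wfs1 was 0 to 2.94 in SCO and 6.48 to 102 in hippocampus, without overlap. Calb1 over Prox1 was 1.13 to 3.76 in SCO and 0.465 to 1.52 in hippocampus, and Neurod1 over Prox1 was 0.583 to 3.36 in SCO and 1.91 to 4.83 in hippocampus, both with overlap. These ratios were picked after the values were seen and were not tested.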
